A study of Mus musculus with 6 samples.

Results

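The genes described here are used as marks of Mueller glia, the support cells of the neural retina, and of their reaction to injury, called gliosis. Which cells made their RNA in these samples was not tested. The 10 genes were taken by name and fall into 3 roles: 5 genes of reactive gliosis (Gfap, Lcn2, Serpina3n, Osmr and Socs3), 4 genes of the resting glial cell (Glul, Slc1a3, Kcnj10 and Aqp4), and Apoc1, a lipoprotein gene that macrophages also make and that stood in neither group. All 10 are among the 15663 genes listed in the count tables, and 9 of them are among the 13454 genes tested, which needed more than 50 counts in at least 2 libraries. Bulk RNA-seq had been done on RPE-choroid, the pigment epithelium and the vascular layer behind the retina, of male C57BL/6J mice (C57BL/6 in the sample labels) of 8 to 10 weeks. The 3 control mice were untreated. The 3 mice with subretinal fibrosis (SRF) had received 4 laser burns in each eye and a second laser on each lesion after 10 days, and RNA was extracted 20 days after that repeat. The laser wounds the retina together with the RPE and choroid, and the controls carried no laser injury at all, so the comparison is of lasered with unlasered eyes at a single time. No genetic change is named for either group.

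Mueller glia run through the whole depth of the retina, clear glutamate through the transporter encoded by Slc1a3, turn it into glutamine with the synthetase encoded by Glul, and move potassium and water through the channels encoded by Kcnj10 and Aqp4. After injury they and the retinal astrocytes build up the intermediate filament protein encoded by Gfap. Cytokines of the IL-6 family, such as LIF, CNTF and oncostatin M, act through receptors that share gp130 (Il6st), through JAK kinases and through STAT3, whose targets include Gfap, Serpina3n, Lcn2 and the feedback inhibitor Socs3.

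No Mueller glia or gliosis gene passed the test for a difference between SRF and control mice. Serpina3n, Osmr and Socs3 were higher in every SRF mouse than in every control mouse, Gfap and Slc1a3 were nearly equal in the group means, and Glul differed by little in any library. Called genes are those with a Benjamini-Hochberg adjusted p under 0.05 in edgeR's quasi-likelihood test and a log2 difference no smaller than 0.5 in size. By this rule 0 of 9 tested members were called, and so were 0 of all 13454 tested genes, which is 0%, although 943 genes had an unadjusted p under 0.05. DESeq2 under the same thresholds called 1.14% of the tested genes and 0 members. At an unadjusted edgeR p under 0.05, 2 members were higher in SRF mice (Osmr and Socs3) against a background of 4.16% of all tested genes, and 0 members were lower against 2.85%. The groups did not overlap for 3 members, all higher in SRF mice, where 6.71% of all tested genes were higher and 6.43% lower in this way. The members were chosen with earlier results of these data known, so these counts are a description.

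The libraries held between 13667310 and 24356023 counts, and a count of 3 corresponded to 0.123 to 0.22 CPM (read counts scaled to a fixed library total). The libraries differed in RNA of photoreceptor genes, which was used as a measure of neural retina in the dissected tissue. Whether retina was left on the tissue is not stated in the sources used here. The mean log2 CPM of 25 photoreceptor genes was 7.70, 4.97 and 4.25 in control mice 1, 2 and 3 and 3.82, 4.67 and 7.75 in SRF mice 1, 2 and 3. One library of each group, control mouse 1 and SRF mouse 3, was thus rich in photoreceptor RNA and is called retina-rich here. Values below are also given without these 2 libraries where that changes a call, turns the sign or moves the log2 fold change over 1.5 times. Without them, edgeR called 153 of 13145 tested genes (1.16%) and 0 members. The photoreceptor mean was also used as a covariate. Rpe65, a visual cycle enzyme of the RPE, was at 4687, 4437 and 3511 CPM in control mice and at 3454, 2883 and 2524 CPM in SRF mice, lower in all SRF mice (log2 fold change -0.51, SE 0.17, edgeR adjusted p = 0.539; -0.33 without the retina-rich libraries). In such bulk samples a smaller number of cells of a type and less RNA per cell cannot be told apart. CPM values are normalized by the TMM method, and each error is an SD over 3 mice.

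Gfap lies on the reverse strand of chromosome 11 at 102887336-102900912 (GRCm38, as are all positions). It was at 560.0, 256 and 332 CPM in control mice 1, 2 and 3 and at 177, 575 and 283 CPM in SRF mice 1, 2 and 3. The highest library of each group was about as high as that of the other, and the lowest of all was an SRF mouse. The group levels were 383 ± 158 CPM in control mice and 345 ± 206 CPM in SRF mice (SD, n = 3), a log2 fold change of -0.15 (SE 0.46, edgeR adjusted p = 0.9999). Gfap varied 3.25-fold among the SRF mice, and the sign of its difference rested on single libraries: it was 0.23 without control mouse 1, 0.17 without SRF mouse 1 and 0.35 without both retina-rich libraries. The SRF mouse with the highest Gfap, mouse 2, was not rich in photoreceptor RNA. In that library Mbp, a myelin gene, was at 815 CPM, against 128 to 310 CPM in the other 5 libraries. Of 12 Schwann cell genes in all, 9 were higher in the SRF group, with a median log2 fold change of 0.24, and their summed level was 1033 to 1250 CPM in control mice and 1151, 1889 and 1061 CPM in SRF mice. The part of these cells in the Gfap level was not tested.

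**Figure D1:**
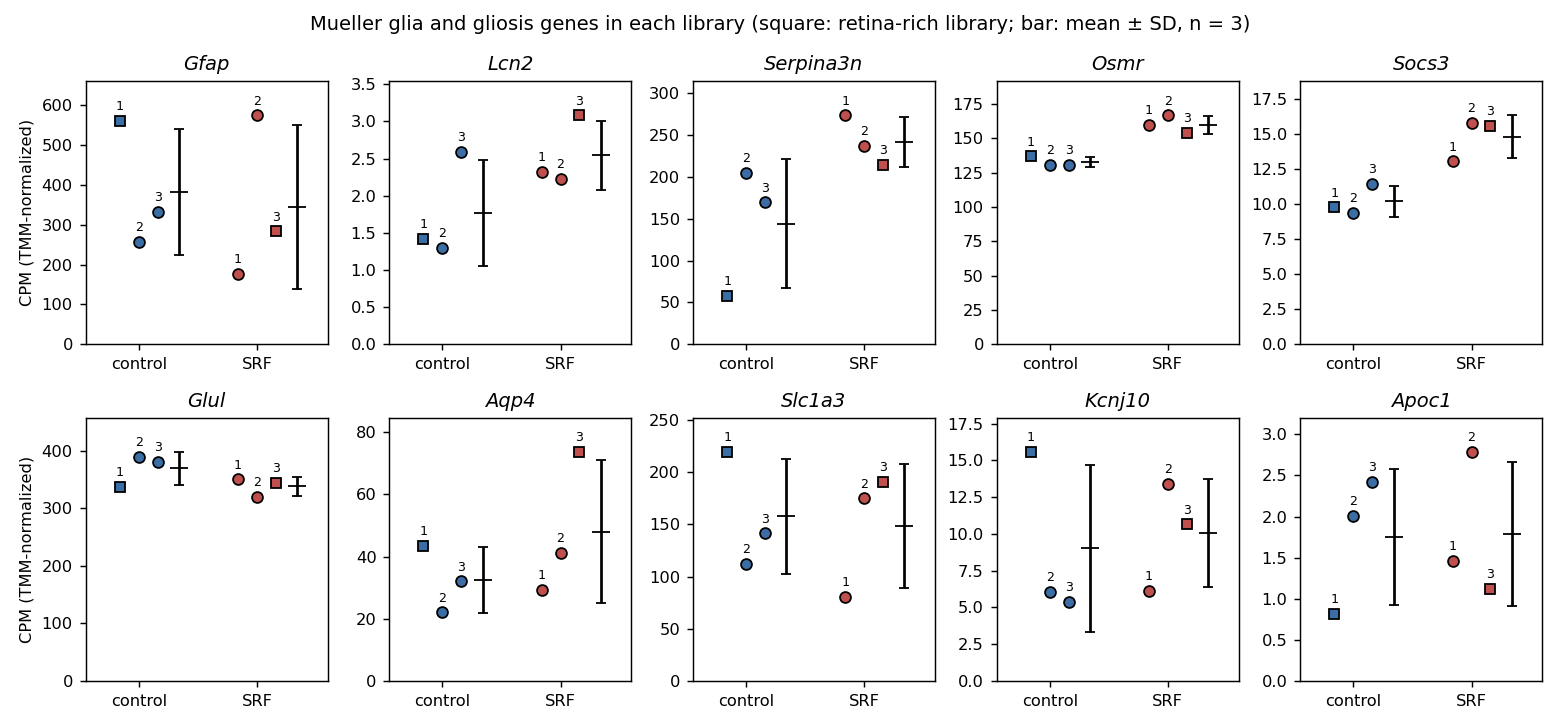
Normalized counts (CPM) of the 10 genes (vertical axes, linear and from 0) in the 3 control mice (blue) and 3 SRF mice (red), with the mouse number above each point, squares for the 2 retina-rich libraries and bars for the mean ± SD. Serpina3n, Osmr and Socs3 are the 3 panels in which each red point lies above each blue point, and Gfap and Kcnj10 are high in control mouse 1 and SRF mouse 2.

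Serpina3n, a secreted serine protease inhibitor that rises in reactive astrocytes, lies on the forward strand of chromosome 12 at 104406729-104414329. It was at 57.5, 205 and 169 CPM in control mice 1, 2 and 3 and at 274, 237 and 214 CPM in SRF mice 1, 2 and 3. The groups did not overlap, but control mouse 1 stood far under the rest and the next control came within a short distance of the lowest SRF mouse. Means were 144 ± 77.0 CPM and 242 ± 29.9 CPM (SD, n = 3), which is a log2 fold change of 0.75 (SE 0.42, edgeR adjusted p = 0.841). Without control mouse 1 the log2 fold change was 0.37, and without both retina-rich libraries 0.45 (SE 0.15, edgeR adjusted p = 0.189). With the photoreceptor mean as a covariate it was 0.83 (SE 0.31, edgeR adjusted p = 0.463). Serpina3n belongs to a family of close copies on chromosome 12, so how reads were shared between the copies can affect its count.

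Lcn2, a secreted siderophore-binding protein of glia and neutrophils, lies on the reverse strand of chromosome 2 at 32384633-32388252. It was at 1.41, 1.30 and 2.59 CPM in control mice and 2.33, 2.23 and 3.08 CPM in SRF mice, which is 19 to 62 counts in a library. The control with the highest level was above 2 of the 3 SRF mice. The log2 fold change was 0.51 (SE 0.41, edgeR adjusted p = 0.939), only a little more than its SE at these low counts. Of 12 neutrophil genes 8 were listed, their sum was 14.1 to 26.7 CPM in the 6 libraries, and Ly6g, Mpo, Elane and Ngp were not listed.

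Osmr, the receptor chain for oncostatin M, lies on the reverse strand of chromosome 15 at 6813577-6874969. It was at 137, 131 and 130.4 CPM in control mice and at 159, 167 and 154 CPM in SRF mice. All SRF mice were above all control mice. The ratio of the highest to the lowest library, 1.05 in control and 1.08 in SRF mice, was the smallest of the 5 reactive genes in each group. The means of 133 ± 3.55 and 160 ± 6.5 CPM (SD, n = 3) gave a log2 fold change of 0.27 (SE 0.10, edgeR adjusted p = 0.604; DESeq2 adjusted p = 0.279). It was 0.27 with the photoreceptor covariate, 0.32 without both retina-rich libraries, and between 0.24 and 0.31 when any single library was left out. This size is under the fold threshold of the test.

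Socs3, the inhibitor that STAT3 induces against its own receptors, lies on the reverse strand of chromosome 11 at 117966079-117970047. It was at 9.75, 9.39 and 11.4 CPM in control mice and at 13.0, 15.8 and 15.6 CPM in SRF mice. Again no control mouse reached the lowest SRF mouse. Means were 10.2 ± 1.09 and 14.8 ± 1.52 CPM (SD, n = 3), which is a log2 fold change of 0.54 (SE 0.17, edgeR adjusted p = 0.533; DESeq2 adjusted p = 0.438). The log2 fold change was 0.54 with the photoreceptor covariate, 0.46 without both retina-rich libraries and 0.48 to 0.63 with any single library left out. For Serpina3n, Osmr and Socs3 the exact permutation test, two-sided, gave p = 0.1, the smallest that 3 mice against 3 allow.

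**Figure D2:**
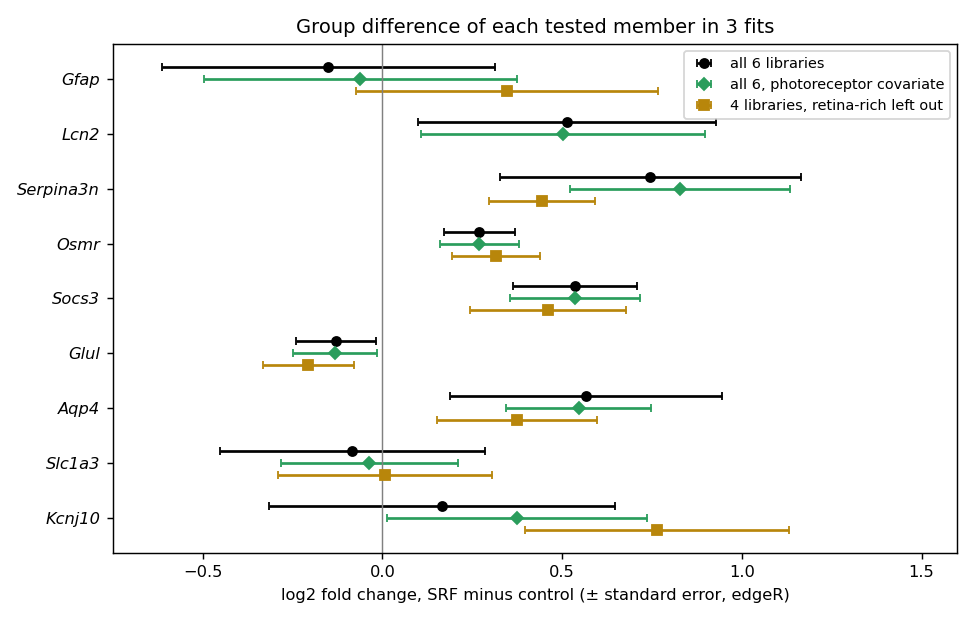
Log2 fold change between SRF and control mice (horizontal axis, points, with bars of 1 standard error from edgeR) for the 9 tested members in all 6 libraries, with the photoreceptor mean as a covariate, and in the 4 libraries left without the retina-rich ones. Osmr and Socs3 keep nearly the same value in each fit, Serpina3n ranges from 0.45 to 0.83 and Kcnj10 from 0.17 to 0.77, and Lcn2 was not tested in the 4 libraries.

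The promoters of the members were read because STAT3 is known to act on several of them. RefSeq promoter sequences (GRCm38.p6, from 250 bases before to 50 bases after the start) were found for 8 of the 10 genes. The STAT palindrome TTCNNNGAA, searched on both strands, occurred in 3 of them, Gfap, Socs3 and Slc1a3, and in 8.3% of all 32851 promoters. The AP-1 motif TGANTCA occurred in 1 of them, Osmr, and in 7.81% of all promoters. The stretches around the STAT matches are shown 5′ to 3′ on the gene's strand, with the match in capitals. The positions are chr11:102897194-102897252 for Gfap, chr11:117969462-117969570 for Socs3 and chr15:8710845-8710953 for Slc1a3, all on the reverse strand.
Gfap: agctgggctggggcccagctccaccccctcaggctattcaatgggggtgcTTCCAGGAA
Socs3: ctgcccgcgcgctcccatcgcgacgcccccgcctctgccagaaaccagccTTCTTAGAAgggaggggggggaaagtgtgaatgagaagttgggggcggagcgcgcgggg
Slc1a3: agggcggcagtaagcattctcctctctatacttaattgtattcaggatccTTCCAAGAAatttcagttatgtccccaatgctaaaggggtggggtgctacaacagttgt
The first base of the match stood at -2 in Gfap, -154 in Socs3 and -96 in Slc1a3, counted from the RefSeq start, which for Gfap and Socs3 lies inside the annotated span of the gene. The 3 genes with a match differed in their values: Socs3 was higher in all SRF mice, while Gfap and Slc1a3 overlapped between the groups. A match describes these letters only.

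Of the resting genes, Glul, the glutamine synthetase on the forward strand of chromosome 1 at 153899944-153909723, had the least spread relative to its level. It was at 337, 390.3 and 381 CPM in control mice and at 350.5, 320.1 and 344 CPM in SRF mice. The range of the SRF mice crossed into that of the controls only through control mouse 1. Means were 370 ± 28.3 and 338 ± 16.1 CPM (SD, n = 3), which is a log2 fold change of -0.13 (SE 0.11, edgeR adjusted p = 0.950). Without both retina-rich libraries it was -0.21 (SE 0.13, edgeR adjusted p = 0.431), and the 2 SRF mice left were below the 2 controls. Its level in the retina-rich libraries, 337 and 344 CPM, lay within that of the other 4 libraries, although their photoreceptor levels differed widely. Glul overlaps Teddm2 on the opposite strand, which is listed too, and the strandedness of the counting is not given in the sources used here.

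Slc1a3, the glutamate transporter GLAST, lies on the reverse strand of chromosome 15 at 8634124-8710764. It was at 219, 112 and 141 CPM in control mice and at 80.8, 175 and 191 CPM in SRF mice. Both retina-rich libraries were above the other 4, and within the retina-poor libraries SRF mouse 2 was the highest and SRF mouse 1 the lowest. The log2 fold change was -0.08 (SE 0.37, edgeR adjusted p = 0.9999), and 0.01 without both retina-rich libraries.

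Kcnj10, the inward rectifier potassium channel Kir4.1, lies on the forward strand of chromosome 1 at 172341210-172374085. It was at 15.6, 6.08 and 5.38 CPM in control mice and at 6.11, 13.4 and 10.6 CPM in SRF mice. Control mouse 1 was the highest of all and the other 2 controls the lowest of all. The log2 fold change was 0.17 (SE 0.48, edgeR adjusted p = 0.9999). It was 0.37 with the photoreceptor covariate and 0.77 (SE 0.37) without both retina-rich libraries. Leaving out control mouse 2, control mouse 3 or SRF mouse 2 turned it to -0.05, -0.10 and -0.10, and leaving out control mouse 1 gave 0.82.

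Aqp4, the water channel of glial endfeet, lies on the reverse strand of chromosome 18 at 15389496-15410982. It was at 43.4, 22.0 and 32.0 CPM in control mice and at 29.3, 41.2 and 73.6 CPM in SRF mice. The retina-rich library of each group was the highest of that group, and the groups overlapped. Means were 32.5 ± 10.7 and 48.0 ± 22.9 CPM (SD, n = 3), which is a log2 fold change of 0.57 (SE 0.38, edgeR adjusted p = 0.895). With the photoreceptor covariate its value was nearly the same, 0.55, with a smaller error (SE 0.20, edgeR adjusted p = 0.463). Without both retina-rich libraries it was 0.38 (SE 0.22, edgeR adjusted p = 0.418), and without SRF mouse 3 alone 0.13.

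**Figure D3:**
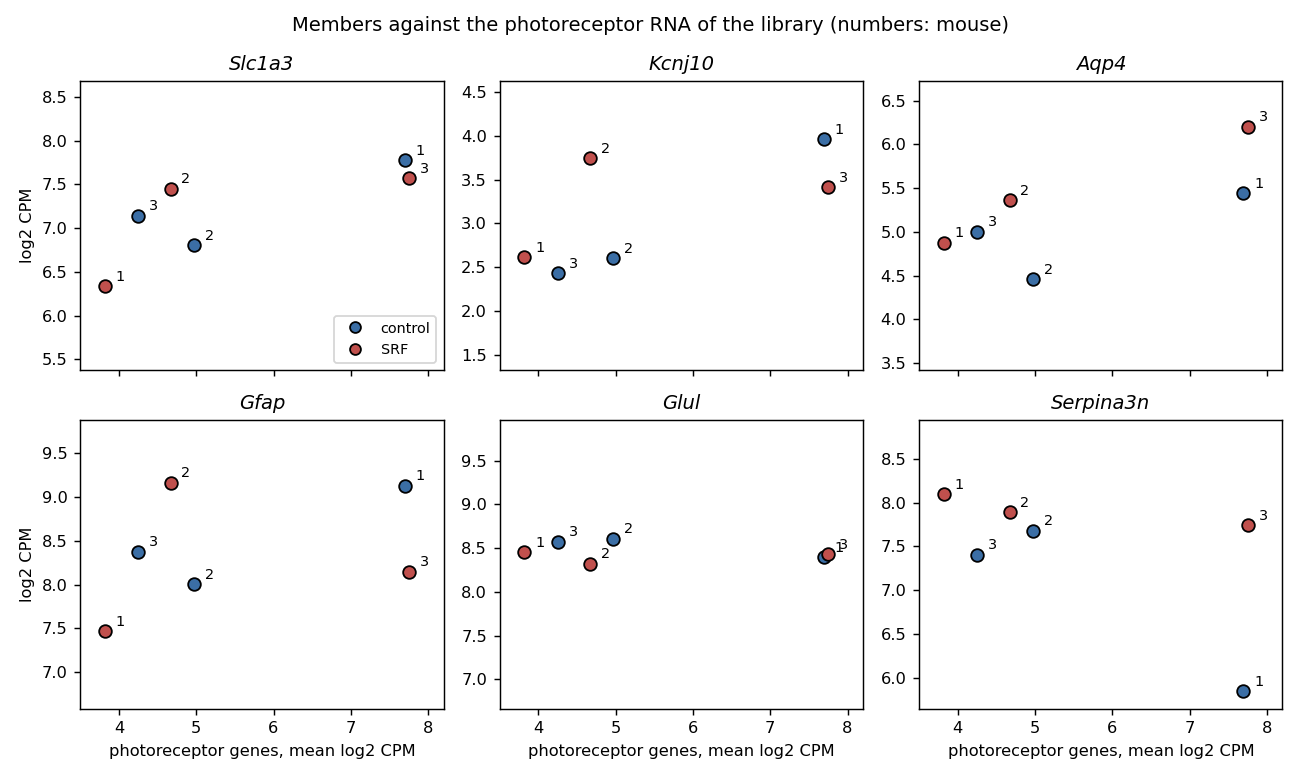
Log2 CPM of 6 members (vertical axes, all spanning the same range) against the photoreceptor level of the library, the mean over 25 genes in log2 CPM (horizontal axis), 1 point for each library with its mouse number, control mice in blue and SRF mice in red. Slc1a3 and Aqp4 are highest at the right, where the 2 retina-rich libraries lie, Glul is level across the axis, and Serpina3n has its lowest point at the right in control mouse 1.

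The 20 Mueller markers were used as a check of the tissue, and 19 of them were tested. Of these 11 were higher and 8 lower in SRF mice, 1 and 3 of them at an unadjusted edgeR p under 0.05. Over all tested genes 4.16% were higher and 2.85% lower at such a p. Without overlap between the groups were 1 higher and 3 lower of the 19, where 6.71% of all tested genes were higher and 6.43% lower in this way. The median log2 fold change of the list was 0.08 against 0.00 over all tested genes. Rlbp1, the retinaldehyde-binding protein of Mueller glia and of the RPE, was at 2615, 2659 and 2667 CPM in control mice and 2365, 1992 and 2114 CPM in SRF mice. It was lower in all SRF mice (log2 fold change -0.30, SE 0.11, edgeR adjusted p = 0.609). Car14, a carbonic anhydrase of both cell types, was lower by 0.43 (SE 0.13, edgeR adjusted p = 0.478), with no overlap between groups. Slc7a11, the cystine transporter, was lower by 0.63 (SE 0.17, edgeR adjusted p = 0.413), again with no overlap. Cd9, a tetraspanin, was higher by 0.36 (SE 0.12, edgeR adjusted p = 0.578), with no overlap. Sox2, a transcription factor of glia and of some amacrine cells, reached only 0.434 to 2.01 CPM and was not tested. Rlbp1, Glul, Car14 and Clu, a secreted chaperone at 2720 to 3430 CPM, had their highest level in neither of the 2 retina-rich libraries. The RPE list as a whole was lower in SRF mice for 11 of 14 genes, with a median log2 fold change of -0.50, and its part in the values of Rlbp1 and Car14 was not tested.

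Crym and Gpr37 were the list's most positive genes. Crym, a thyroid hormone-binding protein, was at 24.9, 10.5 and 8.85 CPM in control mice and 21.7, 20.5 and 50.8 CPM in SRF mice, a log2 fold change of 1.08 (SE 0.51, edgeR adjusted p = 0.763). Without both retina-rich libraries Crym was 1.12 (SE 0.19, edgeR adjusted p = 0.0331), which passes the rule for a call, and with the photoreceptor covariate 1.19 (SE 0.16, edgeR adjusted p = 0.0701), which does not. Gpr37, an orphan receptor of glia, was at 37.3, 6.08 and 8.51 CPM in control mice and 14.1, 29.6 and 56.2 CPM in SRF mice, 0.96 on the log2 scale (SE 0.77, edgeR adjusted p = 0.939). It was 1.57 without both retina-rich libraries (SE 0.34, edgeR adjusted p = 0.0734) and 1.28 with the covariate (SE 0.32, edgeR adjusted p = 0.248). In both genes, as in Aqp4, each retina-rich library was the highest of its group and the groups overlapped.

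Apoc1, on the reverse strand of chromosome 7 at 19689481-19692660, was counted too rarely for the test. It was at 0.819, 2.01 and 2.42 CPM in control mice and 1.46, 2.78 and 1.12 CPM in SRF mice, from 11 to 58 counts. The lowest and the highest library were a control and an SRF mouse, and the means were 1.75 ± 0.831 and 1.79 ± 0.879 CPM (SD, n = 3; exact permutation test, two-sided, p = 1.0). Of its neighbours, Apoe was far above that level, and Apoc2 was below it in control mice and near it in SRF mice. Apoe, the main lipid carrier of glia and macrophages, was at 6856, 8279 and 6390 CPM in control mice and 10210, 10020 and 6853 CPM in SRF mice, a log2 fold change of 0.33 (SE 0.18, edgeR adjusted p = 0.838). Apoc2, the cofactor of lipoprotein lipase, was at 0.868 to 1.17 CPM in control mice and 1.62 to 2.24 CPM in SRF mice, with no overlap but too few counts for the test.

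On the length-scaled FPKM of the deposited tables, the order of levels over all 6 libraries was Glul (199 ± 16.9), Gfap (138 ± 63.2), Serpina3n (93.6 ± 37.2), Slc1a3 (36.9 ± 12.3), Osmr (26.7 ± 3.41), Aqp4 (11.4 ± 5.03), Socs3 (4.90 ± 1.18), Apoc1 (3.98 ± 1.75), Lcn2 (2.36 ± 0.770) and Kcnj10 (1.76 ± 0.804), as mean ± SD in FPKM. Among neighbours in this order, Osmr and Aqp4 were the 1 pair whose ranges over the libraries did not meet. The glial potassium channel was thus the least abundant of the 10 transcripts per length, and the filament and the synthetase were the most abundant.

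The reactive and the resting genes were also averaged in each library, on log2 CPM centred on the mean of the 6 libraries. The reactive mean was -0.36, -0.26 and 0.00 in control mice 1, 2 and 3 and 0.03, 0.38 and 0.21 in SRF mice 1, 2 and 3. It was higher in each SRF mouse than in each control mouse, narrowly between control mouse 3 and SRF mouse 1, and by 0.41 between the group means (-0.20 ± 0.19 and 0.20 ± 0.18, SD, n = 3). The resting mean was 0.39, -0.38 and -0.21 in control mice and -0.43, 0.22 and 0.40 in SRF mice, and it was high in both retina-rich libraries and in SRF mouse 2. The reactive minus resting value was -0.75, 0.12 and 0.21 in control mice and 0.45, 0.16 and -0.20 in SRF mice, so the groups overlapped. The difference of 0.28 between the group means of this value was under the pooled SD of 0.44, and it was -0.025 without control mouse 1. No test was made of these means, since the members were chosen with results known.

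**Figure D4:**
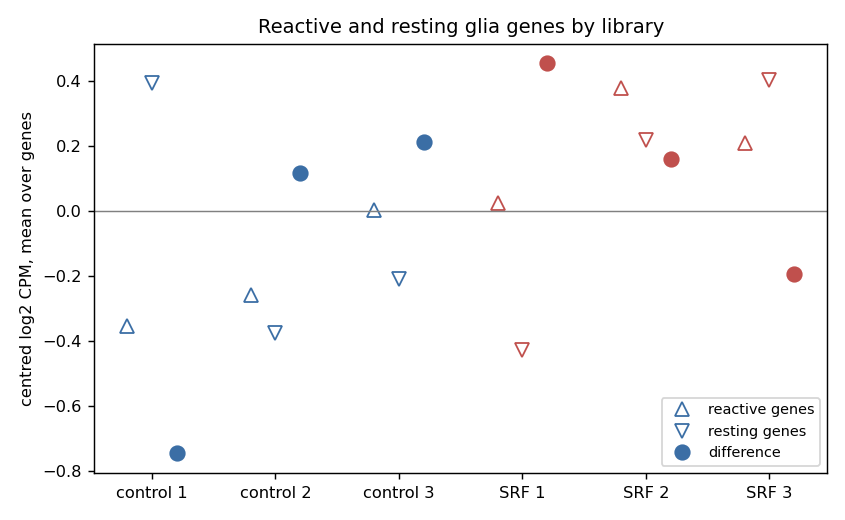
Mean centred log2 CPM (vertical axis) of the 5 reactive genes (upward triangles) and the 4 resting genes (downward triangles) and their difference (filled circles) in each of the 6 libraries, control mice in blue and SRF mice in red. The reactive means of the SRF mice lie above those of the controls, while the resting means and the differences of the groups overlap, with the lowest difference in control mouse 1.

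Each gene was also set against Slc1a3 within a library. Aqp4 per Slc1a3, as a ratio of CPM, was 0.198, 0.197 and 0.226 in control mice and 0.363, 0.235 and 0.386 in SRF mice. It was the 1 ratio of 8 in which the groups did not overlap, it was chosen after the values were seen, and it was not tested. Gfap per Slc1a3 was 2.55, 2.29 and 2.35 in control mice and 2.19, 3.29 and 1.49 in SRF mice. The controls were close to each other in this ratio although Gfap itself varied 2.18-fold among them, and the SRF mice lay on both sides of them.

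In the wider IL-6 family, Il6 and Il27 were not listed. Of the 8 ligand genes 3 were tested and all 3 were lower in SRF mice, none of them at an unadjusted p under 0.05 (Cntf -0.10, Ctf1 -0.24 and Clcf1 -0.27 on the log2 scale). Lif was at 0.744, 0.868 and 0.751 CPM in control mice and 1.41, 1.06 and 1.01 CPM in SRF mice, and Osm, the ligand of Osmr, was at 0.447, 0.705 and 0.542 CPM and 1.08, 1.28 and 0.728 CPM. Both were higher in all SRF mice but had too few counts for the test. Osm had the same 13 counts in control mice 2 and 3 and in SRF mouse 3. Lif had 18 counts in control mouse 3 and in SRF mouse 3. Il11, not tested either, overlapped between the groups, at 0.793 to 1.34 CPM in control mice and 0.668 to 1.23 CPM in SRF mice. Of 13 receptor and kinase genes 12 were tested and 10 were higher in SRF mice, with a median log2 fold change of 0.20. Without overlap were 5 of them, among them Osmr, Jak1, Jak2 and Stat3, and 3 had an unadjusted edgeR p under 0.05. All of these were higher, where 6.71% of all tested genes did not overlap and 4.16% had such a p in this direction. Stat3 was at 131, 162 and 169 CPM in control mice and 194, 210.2 and 211 CPM in SRF mice, 0.41 on the log2 scale (SE 0.13, edgeR adjusted p = 0.521). The shared chain Il6st (0.12), Lifr (-0.08) and Il6ra (0.62) overlapped between the groups. When both retina-rich libraries were left out, Il6st turned to -0.18, Lifr was -0.41, Jak2 0.14 and Clcf1 -0.12, all with an edgeR adjusted p above 0.05.

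All 20 STAT3 targets and inhibitors were tested, and 13 were higher and 7 lower in SRF mice, with a median log2 fold change of 0.43 against 0.00 over all tested genes. At an unadjusted edgeR p under 0.05, 7 were higher and 0 lower, where 4.16% and 2.85% of all tested genes were so. The groups did not overlap for 7, all higher, where 6.71% of all tested genes were higher in this way. The list shares 4 genes with the members (Socs3, Lcn2, Gfap and Serpina3n). Cebpb, a transcription factor of the acute phase, was at 10.1, 17.4 and 14.5 CPM in control mice and 40.2, 42.4 and 23 CPM in SRF mice. Its log2 fold change was 1.33 (SE 0.29, edgeR adjusted p = 0.311), and it was the 1 gene of the list that DESeq2 called (adjusted p = 0.00448). EdgeR called Cebpb as well without both retina-rich libraries (1.37, SE 0.16, adjusted p = 0.0104). Timp1, a metalloproteinase inhibitor, was at 5.51, 7.0 and 7.97 CPM in control mice and 13.3, 13.1 and 11.5 CPM in SRF mice, 0.89 on the log2 scale (SE 0.21, edgeR adjusted p = 0.359). Socs1, the second feedback inhibitor, was at 5.43, 5.86 and 6.80 CPM in control mice and 11, 12.4 and 8.18 CPM in SRF mice, 0.80 on the log2 scale (SE 0.23, edgeR adjusted p = 0.452). Lrg1 (0.84), Il4ra (0.53) and Fgl2 (0.68) were the other 3 with an unadjusted p under 0.05, and of these edgeR called Lrg1 without both retina-rich libraries (0.95, SE 0.16, adjusted p = 0.0331). Pim1 (-0.26) and Junb (-0.22) were the most negative, and both overlapped between the groups. Junb was -0.46 without both retina-rich libraries.

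**Figure D5:**
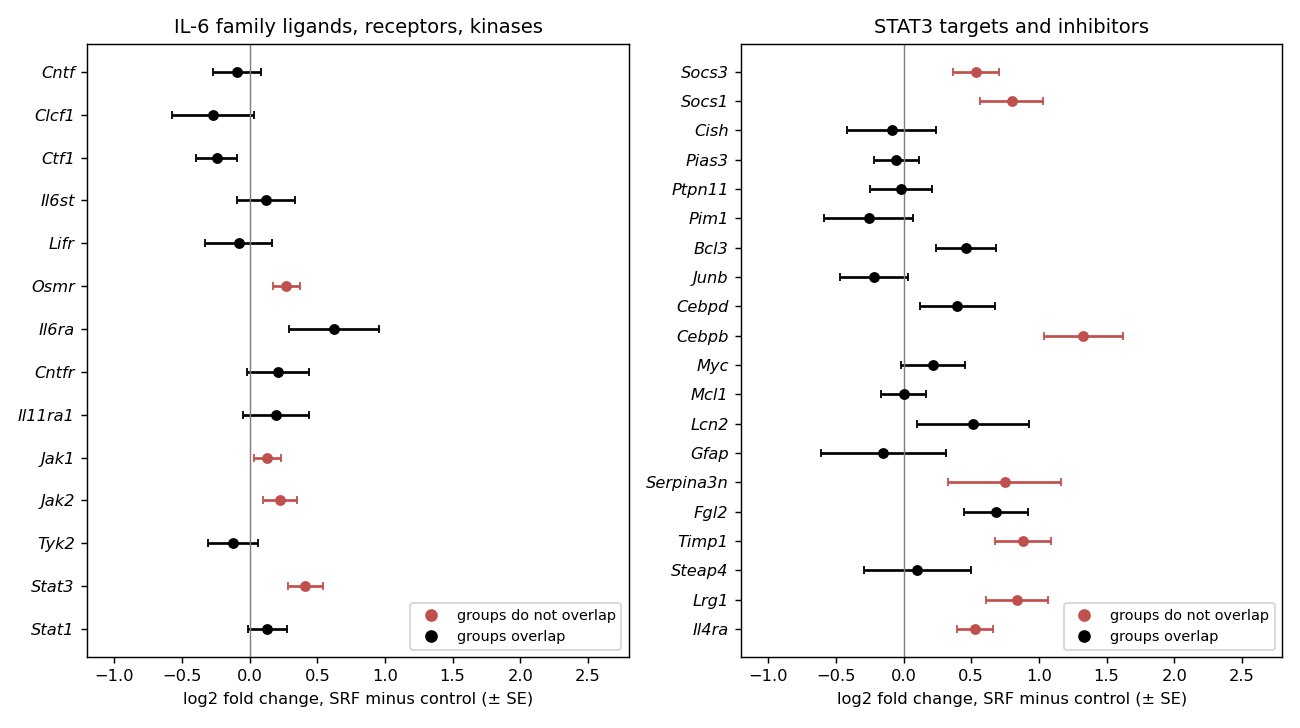
Log2 fold change between SRF and control mice (horizontal axes, points, with bars of 1 standard error from edgeR) for tested genes of the IL-6 family ligands, receptors and kinases (left) and of the STAT3 targets and inhibitors (right), in red where the 2 groups do not overlap. Osmr, Jak1, Jak2 and Stat3 are the red points on the left, Cebpb has the largest value on the right, 1.33, and Gfap lies at -0.15 among the STAT3 targets.

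Of 13 pan-reactive astrocyte genes 11 were tested, 9 were higher and 2 lower, and 4 did not overlap (Timp1, Cd44, Osmr and Serpina3n), with a median log2 fold change of 0.27. Timp1 and Osmr were the 2 with an unadjusted edgeR p under 0.05. In the higher direction 6.71% of all tested genes did not overlap and 4.16% had such a p. Cd44, the hyaluronan receptor, was higher by 0.21 on the log2 scale (SE 0.10, edgeR adjusted p = 0.785). Gfap and Cp, the copper oxidase ceruloplasmin (-0.09), were the 2 lower genes among those tested. Of those not tested, Aspg was lower in all SRF mice at 2 to 10 counts in a library, and Cxcl10 overlapped between the groups. Vim, the filament partner of Gfap, was at 275, 253 and 190.1 CPM in control mice and 352, 364 and 193 CPM in SRF mice, 0.34 on the log2 scale (SE 0.27, edgeR adjusted p = 0.939). It was 0.69 without both retina-rich libraries (SE 0.16, edgeR adjusted p = 0.0839).

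Markers of other cell types were counted beside the reactive genes. Of 12 macrophage genes 11 were higher in SRF mice, 9 at an unadjusted edgeR p under 0.05 and 6 called by DESeq2, with a median log2 fold change of 0.84 and a summed level of 1406 to 1841 CPM in control mice and 3286 to 4735 CPM in SRF mice. The 2 ranges did not meet. Over all tested genes, 4.16% were higher at such a p, and DESeq2 called 1.14%. Macrophages are known to express Socs3, Cebpb, Osm, Il4ra and Apoe too, and their part in the values of the reactive genes was not tested. Of 8 fibroblast genes 7 were higher, with a median of 0.48, and their part was not tested either. The 1 lower gene, Fap (-0.46), was lower in all SRF mice. Without both retina-rich libraries Dcn turned from 0.35 to -0.21 and Lum moved from 0.53 to 0.14. In that fit Col1a2 moved from 0.54 to 0.24 and Col1a1 from 0.54 to 0.30, while Col3a1 (0.72), Pdgfra (0.15) and Pdgfrb (0.54) stayed higher. Of 10 choroidal endothelial genes 7 were higher, with a median of 0.03, and of 18 listed inner retinal neuron genes 10 were higher. Of the retinal and optic nerve astrocyte genes 7 of 8 were tested, 3 were higher and 4 lower, with a median of -0.09. Slc1a2, the astrocyte glutamate transporter, which cones and bipolar cells also express, was at 40.5, 14.5 and 11.1 CPM in control mice and 9.52, 11 and 41.4 CPM in SRF mice, highest in the 2 retina-rich libraries. Aldoc, an astrocyte aldolase also expressed elsewhere in the retina, was -0.32 (SE 0.27, edgeR adjusted p = 0.948) in all libraries and -0.80 (SE 0.13, edgeR adjusted p = 0.0309) without the retina-rich ones, a call.

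For each member, the 3 tested genes with the most similar course over the 6 libraries were found by the root mean square difference of centred log2 CPM. The nearest to Gfap were Pamr1 (0.17), Gpr37l1 (0.18), a receptor of glia, and Itih3 (0.21), a hyaluronan-associated protein. Itih3 was also among the 3 nearest to Kcnj10 (0.22), with Tvp23a (0.22) and Plcxd1 (0.22). Pamr1, at 56.1, 32.2 and 36.8 CPM in control mice and 20.8, 72.2 and 41.1 CPM in SRF mice, was highest in the same 2 libraries as Gfap. The nearest to Aqp4 were Qpct (0.14), Kcnip3 (0.15) and Sox8 (0.16), a transcription factor of oligodendrocytes and glia. Slc1a3 had Asf1b (0.10), Fut9 (0.10) and Lsm11 (0.12).

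Socs3 was nearest to Tmem178 (0.04), Vstm4 (0.05) and Skap2 (0.05), and Osmr to Supt20 (0.02), Chic2 (0.03) and Rbm15 (0.03). Members that vary little have many near genes, so these values are small for Osmr and for Glul, whose nearest were Cog4 (0.01), Prdx3 (0.02) and Nbdy (0.03). Serpina3n had Cited4 (0.16), Rtl3 (0.17) and Igfn1 (0.19), and Lcn2 had Gpat3 (0.09), Ooep (0.12) and Creg2 (0.14). Apoc1 had Gvin1 (0.17), Galnt12 (0.19) and Bche (0.19). With 6 libraries such likeness describes these libraries, which differ in photoreceptor RNA.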

How the data were processed

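RPE-choroid of 3 control and 3 SRF mice was grouped by the sample labels, and each library is a separate mouse. The authors filtered reads with FASTP, counted reads per gene with StringTie and deposited raw counts and FPKM values (scaled by length and library, by the authors). Aligner, genome build and strandedness are not given in the sources used here. Positions come from GENCODE M21 (GRCm38), which held 15659 of 15663 identifiers, and promoters from RefSeq. The tables list no count under 1.

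Genes counted more than 50 times in 2 or more libraries were tested with edgeR 4.0.16 in R 4.3.3 (TMM, estimateDisp, glmQLFit with legacy = TRUE, glmQLFTest, group as the only term) and Benjamini-Hochberg adjustment over 13454 genes. The SE was taken as the log2 fold change over the root of F. DESeq2 1.42.0, the tool of the study, and limma 3.58.1 on log2(FPKM + 0.1) and log2(FPKM + 1) were alternatives, with RLE scaling, no filter, legacy = FALSE, a GC offset, a replicate block, the photoreceptor covariate and libraries left out. Log2 CPM used a prior count of 2. Permutation tests used scipy 1.17.1. The fit was also run on simulated counts with known changes. These were drawn for each gene apart, without the shared differences in photoreceptor RNA, so they cannot show how the fit does on these libraries.

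The members and the 18 gene lists were chosen with earlier results of these data known. Named genes are the members, their 3 nearest genes, and of each list those with an unadjusted p under 0.05 or called by DESeq2 and the 2 most positive and negative. In the lists of other cell types few genes are named, and these were chosen after their values were seen, as were a few further genes of other lists. TMM factors were between 0.978 and 1.026. The median SE was 0.19, and log2 differences of several times this size could still miss the call. Cebpb, at 1.33 (SE 0.29), was not called by edgeR in all 6 libraries (adjusted p = 0.311). Results that concern a few further genes are not reported here.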

Additional observations from a re-analysis of the deposited data

How the results depend on the processing

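The number of members called was 0 under all 18 alternatives, and adjusted p-values of single members were between 0.161 and 1.0. Osmr, Socs3, Serpina3n, Lcn2, Aqp4 and Glul kept their sign under each alternative that gave a value. Lcn2 had too few counts for the filter without control mouse 3, without SRF mouse 3 and without both retina-rich libraries. Of the members whose sign turned, Gfap was 0.35 and Slc1a3 0.007 without both retina-rich libraries, and single libraries left out gave ranges of -0.73 to 0.23 for Gfap, -0.29 to 0.24 for Slc1a3 and -0.10 to 0.82 for Kcnj10. The reactive minus resting difference was between -0.025 and 0.455 with single libraries left out, the first without control mouse 1; it was 0.44 without Gfap, and 0.19 without Glul and 0.15 without Serpina3n, the last 2 added after seeing the data. The cause of these turns was not tested.

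Over all tested genes, 0 were called by edgeR, 153 by DESeq2 with and without the filter, 1 by edgeR with no filter, 1 with legacy = FALSE, 2 by limma with either pseudocount, 1 with the photoreceptor covariate, 262 by DESeq2 with that covariate and 153 by edgeR without both retina-rich libraries. Single libraries left out gave 0 to 5, the most without control mouse 1. Without both retina-rich libraries, in a count added after seeing the data, the groups did not overlap for 4 members in the higher direction (Serpina3n, Osmr, Socs3 and Kcnj10) and 1 in the lower (Glul), where 25.5% and 24.2% of the tested genes did so.

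Mouse numbers are not stated to pair the samples, and they were not used in the main fit. The deviations of same-numbered mice correlated at -0.48, 0.49 and -0.30, and 1 of 6 libraries correlated best with its own number. With few libraries that differ in photoreceptor RNA, these values cannot show whether mice of the same number share a batch. With the replicate block 0 genes and 0 members were called, and the log2 fold change was -0.24 for Gfap, 0.91 for Serpina3n and 0.30 for Kcnj10. With 3 mice in a group and SEs of 0.37 to 0.48 for Gfap, Lcn2, Serpina3n, Aqp4, Slc1a3 and Kcnj10, differences near 0.5 on the log2 scale could not be told from the spread between mice.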

Other observations

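Genes that mark astrocytes reacting to inflammation or to ischaemia were counted as well. Of 13 neuroinflammatory genes 12 were tested, 9 higher and 3 lower in SRF mice, 0 of them at an unadjusted edgeR p under 0.05, with a median log2 fold change of 0.11. Serping1, the C1 inhibitor, was the most positive at 0.43 (SE 0.23, edgeR adjusted p = 0.816), and Ggta1, a galactosyltransferase, the most negative at -0.20. Without both retina-rich libraries they were 0.18 and -0.46. C3, the central complement component, was at 16.1, 15.2 and 17.9 CPM in control mice and 15.6, 21.4 and 18.4 CPM in SRF mice. Of 12 ischaemic genes 10 were tested, 6 higher and 4 lower, with a median of 0.00, from Tgm1 at -0.45 to Sphk1 at 0.56, which were -1.01 and 0.94 without both retina-rich libraries. The 1 without overlap was Cd14, a lipopolysaccharide co-receptor of macrophages, at 12.4 to 18.5 CPM in control mice and 19.7 to 20.5 CPM in SRF mice. Its log2 fold change of 0.33 was 0.18 without both retina-rich libraries. Over all tested genes, 6.71% were higher in SRF mice without overlap.

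Of 12 genes that the stressed retina is known to induce or release 10 were tested, and they went in both directions, 5 higher and 5 lower. Without overlap between the groups were 3 higher genes (C4b, Hmox1 and A2m) and 1 lower gene (Bdnf). Over all tested genes, 6.71% were higher and 6.43% lower in this way. C4b, a complement component, was at 69.6, 73.1 and 62.0 CPM in control mice and 102, 118 and 83.0 CPM in SRF mice, 0.57 on the log2 scale (SE 0.15, edgeR adjusted p = 0.421). Hmox1, haem oxygenase, was higher by 0.51 (SE 0.14, edgeR adjusted p = 0.421) and A2m, a protease scavenger, by 0.61 (SE 0.20, edgeR adjusted p = 0.559), both with no overlap. Bdnf, a neurotrophin, was the 1 gene of this list lower in all SRF mice, at 16.2, 19.0 and 14.9 CPM in control mice and 11.5, 9.80 and 8.51 CPM in SRF mice, -0.75 on the log2 scale (SE 0.19, edgeR adjusted p = 0.404). Mt1, a metallothionein, was at -0.25 on the log2 scale with overlapping groups, and at 0.05 without both retina-rich libraries.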
